A study of Rattus norvegicus with 86 samples.

Results

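*Qrfpr* (ENSRNOG00000014414) encodes the receptor of QRFP, a neuropeptide of the RFamide family that is also called 26RFa. *Qrfpr* is 1 of the 17250 genes in the deposited expression table of the prelimbic cortex (PL), and it was chosen by its own log2 values in this table, which fell into 2 levels over these rats. The table holds 80 Heterogeneous Stock (HS) rats, 40 male and 40 female, with 1 RNA-Seq library per rat. HS rats are an outbred population derived from inbred founder strains, so that every rat carries its own mosaic of founder chromosomes. The rats were untreated animals kept in groups, their PL was dissected bilaterally from frozen sections, and the sample labels give no age. The labels divide the kept rats into 14 of rat batch 2, 23 of batch 3, 26 of batch 4, 1 of batch 5 and 16 of batch 6. A further 6 of the 86 PL samples in the labels had been removed by the authors, 1 for its low read count, 2 for a genotype mismatch and 3 as expression outliers, and were not analysed here.

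QRFPR is a G protein-coupled receptor that signals through Gq and Gi/o proteins. Its ligand is made mainly in the hypothalamus and is known for effects on feeding, arousal and energy balance, and the receptor is found in many brain areas outside the hypothalamus. The prelimbic cortex is a part of the medial prefrontal cortex that takes part in goal-directed behavior.

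The annotated start of *Qrfpr* is shown because the measured quantity is the amount of RNA made from this gene. RefSeq places it on the minus strand of chromosome 2, and the 300 bases from 250 before to 50 after the gene start are chr2:121024971-121025270 in the GRCr8 assembly. This assembly differs from Rnor_6.0, the build that the labels name for the deposited data. The sequence is written 5′ to 3′ on the strand of the gene, with matches to the GC box GGGCGG or its reverse complement in capitals.
Qrfpr promoter: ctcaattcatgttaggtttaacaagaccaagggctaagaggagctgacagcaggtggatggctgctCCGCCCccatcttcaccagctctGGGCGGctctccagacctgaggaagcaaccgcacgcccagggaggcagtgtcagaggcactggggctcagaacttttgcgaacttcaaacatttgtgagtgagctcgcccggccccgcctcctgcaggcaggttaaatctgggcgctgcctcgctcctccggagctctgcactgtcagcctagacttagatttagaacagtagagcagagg
The window held 2 such matches, and 33.1% of the 33469 RefSeq rat promoters of the same length held at least 1. There was no match on either strand to TATAAA, which 14.2% of the promoters held, to CCAAT, which 37.5% held, or to the cAMP response element TGACGTCA, which 1.83% held. Its GC content was 57.7%, above 67.8% of the promoters. These letters come from the reference strain, and the sequences of the HS rats were not analysed here.

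*Qrfpr* was detected in all 80 rats, with a mean log2 value of 5.17 ± 2.06 (SD, n = 80). Here a log2 value is the log2 of the adjusted read count plus 1, as deposited, and the adjusted count is the value after undoing the logarithm. The mean lay above 25.5% of the genes in the table, whereas the SD lay above 99.1%, and 150 genes had a larger one. In 30 rats the adjusted count of *Qrfpr* was between 1 and 11, with a median of 6 and quartiles of 4 and 7. In the other 50 rats it was between 58 and 217, with a median of 102 and quartiles of 88.3 and 114.5. No rat had a value between 11 and 58. On the log2 scale the lower rats ranged from 1.00 to 3.58 (median 2.81) and the higher rats from 5.88 to 7.77 (median 6.69), so the empty stretch was 2.30 log2 units wide.

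These levels are a description, since they are what the gene was chosen for. The rat just below the gap was a male of batch 6 with an adjusted count of 11, and the rats just above it were a female of batch 4 and a male of batch 6 with 58 each. The next widest gap between neighbouring values was 0.58 log2 units and lay among the lower rats, where a single read moves the log2 value most. Among the higher rats the widest gap was 0.255 log2 units. A gap of at least 2.30 log2 units with at least 10% of the rats on each side was found for 86 genes (0.499% of the table). Normal mixtures with a shared variance were fitted as a further description. With 2 components the values were described better than with 1, with a Bayesian information criterion (BIC) lower by 119.6, and had means of 2.60 and 6.72 with a common SD of 0.47. Going to 3 components changed the BIC by -1.02 and divided the lower rats, leaving the higher ones as 1 group. Within the 50 higher rats, a second component raised the BIC by 3.04, so the higher values were not divided further.

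**Figure D1:**
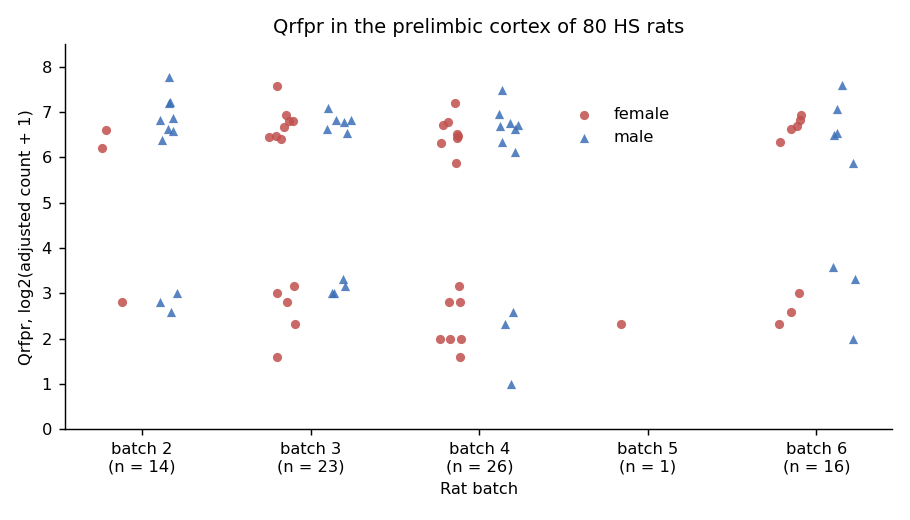
The log2 value of *Qrfpr* (log2 of the adjusted count plus 1) in each of the 80 rats by rat batch, with circles for females and triangles for males. Rats of both levels are present in batches 2, 3, 4 and 6, and no rat lies between 3.58 and 5.88.

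Both levels occurred in every batch with more than 1 rat. In batch 2, 4 of 14 rats had adjusted counts of 5 to 7 and the others 73 to 217. In batch 3, 9 of 23 rats had 2 to 9 and the others 84 to 190. In batch 4, 10 of 26 rats had 1 to 8 and the others 58 to 178. Batch 6 had 6 of 16 rats at 3 to 11 and the others at 58 or more, and the single rat of batch 5, a female, had a count of 4. Thus 28.6% of the rats of batch 2 had the lower level, against 39.1% of those of batch 3, 38.5% of those of batch 4 and 37.5% of those of batch 6. Over all rats the share was 37.5% (95% Wilson interval 27.7% to 48.5%, which covers counting error only).

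Rat batches did not differ detectably in *Qrfpr*. Batch 2 had a mean log2 value of 5.68 ± 1.93 (SD), batch 6 one of 5.24 ± 2.01, batch 3 one of 5.22 ± 2.01 and batch 4 one of 4.93 ± 2.23. Neighbours in this order of levels differed by less than 1 SD. The moderated F-test of limma over batches, with sex in the model, gave F = 0.602 and an adjusted p of 0.712 after Benjamini-Hochberg adjustment over all genes. By the same test, 59.4% of the genes in the table differed between batches at an adjusted p under 0.05. Because the values of *Qrfpr* lie far from a normal distribution, batch was also permuted within sexes, which gave p = 0.744 (100000 permutations, adjusted p = 0.744 over 2 tests).

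Males and females overlapped over both levels. Of the 40 males, 13 had adjusted counts of 1 to 11 and 27 had 58 to 217. Of the 40 females, 17 had 2 to 8 and 23 had 58 to 190. The mean log2 value was 5.48 ± 1.99 (SD) in males and 4.87 ± 2.12 in females. With rat batch in the model, the male minus female difference was 0.45 (standard error 0.47, 95% interval -0.48 to 1.38), and the adjusted p from limma was 0.891. The share of all genes that differed between the sexes at an adjusted p under 0.05 was 0.365%. Permuting sex within batches gave p = 0.357 for *Qrfpr* (100000 permutations, adjusted p = 0.714 over 2 tests). The sex difference did not differ detectably between batches (F = 0.148, adjusted p = 0.99986 from limma's interaction test).

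To find the genes that follow *Qrfpr* across rats, the log2 value of every other gene was regressed on that of *Qrfpr* with limma, with rat batch and sex in the model. The slope is the change in the log2 value of a gene per log2 unit of *Qrfpr*, so the rats were not divided into groups. Most of the spread of *Qrfpr* lies between its 2 levels, however, with an SD of 0.47 within them against 2.06 over all rats. The slope therefore largely compares the lower with the higher rats. Of 17249 genes, 1 passed an adjusted p of 0.05 (0.0058% of those tested), and its slope was negative. No gene had a positive slope past the threshold (0, or 0.0%). At an unadjusted p under 0.05 there were 445 genes (2.58%), 198 with a positive slope (1.15%) and 247 with a negative one (1.43%). The next smallest p in the table was 0.00028, with an adjusted p of 0.99983 from limma. Taking the variance left after batch and sex as the measure of likeness over the 80 rats, *Qrfpr* accounted for 0.477% of the variance of the median gene and for at most 16.7% of that of any gene that did not pass.

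The count of genes past the threshold changed with the rats that entered the fit. Each of the following fits held fewer rats than the main fit. A count of 0 therefore cannot tell a smaller slope from a larger standard error. No gene passed with limma when batch 3, batch 4 or batch 6 was left out, or when the 2 rats farthest from the median of *Qrfpr* were left out (0 genes in each, with 757, 484, 405 and 448 genes at an unadjusted p under 0.05). With each batch taken alone, 0 genes passed, and batch 2 had 615 genes at an unadjusted p under 0.05, batch 3 had 540, batch 4 had 426 and batch 6 had 881. In the 40 females alone and in the 40 males alone there were also 0 calls, with 534 and 1569 genes at an unadjusted p under 0.05. Since *Qrfpr* falls into separate levels, slopes were fitted within each of them as well, and 0 genes passed among the 50 higher rats (1452 at an unadjusted p under 0.05) or the 30 lower rats (447). Within a level *Qrfpr* varied far less, with a common SD of 0.47 in the mixture of 2 components against 2.06 over all rats. Standard errors of slopes were therefore larger, so these counts of 0 say little about the slopes over all rats.

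In HS rats neighbouring genes are often inherited together over long stretches, so the genes around *Qrfpr* were examined in the same fit. RefSeq lists 16 protein-coding genes within 1 Mb of *Qrfpr* on chromosome 2 of the GRCr8 assembly and 57 within 5 Mb. Identifiers could be paired with names only for genes in the parts of the authors' eQTL tables used here, and 5 neighbours within 1 Mb and 18 within 5 Mb are described. These are genes for which an eQTL was mapped in some brain region, and they are not a fair sample of the neighbours. The gene past the threshold is left out of these counts, and its position is not reported here. The counts therefore do not show whether it lies near *Qrfpr*.

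None of these 5 neighbours within 1 Mb passed the threshold, which was settled in advance because the only gene past it is left out. On one side of *Qrfpr*, *Anxa5*, a calcium-dependent phospholipid-binding protein and the nearest gene, had a slope of 0.011 (standard error 0.0069, unadjusted p = 0.101). *Bbs7*, a subunit of the BBSome complex of cilia on the same side, had a slope of -0.021 (standard error 0.0083, unadjusted p = 0.0121, adjusted p = 0.99983 from limma). On the other side, *Acad9*, which takes part in the assembly of respiratory complex I, had -0.0064 (0.0073) and *Mccc1*, a subunit of an enzyme of leucine breakdown, had 0.0045 (0.0094). The phospholipid flippase gene *Atp11b* had -0.010 (0.0088). The unadjusted p of these last genes was between 0.258 and 0.631, so no direction could be given for them.

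Within batches, *Bbs7* had a negative slope in all 4 that could be fitted, with -0.011 (standard error 0.018) for batch 2, -0.012 (0.014) for batch 3, -0.039 (0.016) for batch 4 and -0.0087 (0.020) for batch 6. Of these, the slope in batch 4 had an unadjusted p of 0.0211 from limma and the others had 0.404 or more. *Bbs7* also had a negative slope in females, -0.019 (0.0098), and in males, -0.024 (0.014). *Bbs7* itself varied little, at a mean log2 value of 8.55 ± 0.19 (SD, n = 80). *Anxa5*, at 10.19 ± 0.16, had positive slopes in the same 4 batches, from 0.0066 in batch 3 to 0.019 in batch 6, none with an unadjusted p under 0.256.

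**Figure D2:**
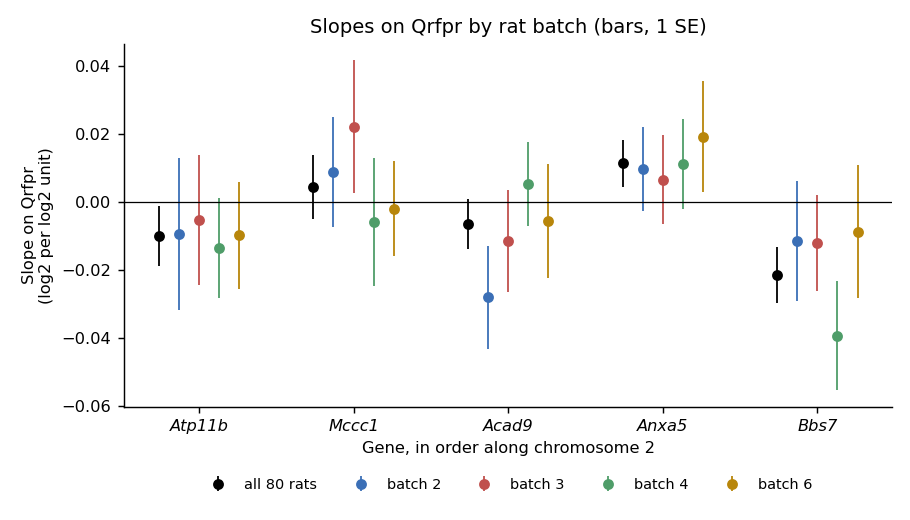
Slope on *Qrfpr* (change in log2 value per log2 unit of *Qrfpr*) of the 5 described genes within 1 Mb, in all 80 rats and in each batch with more than 1 rat, with bars of 1 standard error. *Bbs7* lies below 0 and *Anxa5* above 0 in every batch shown, with the *Bbs7* slope of batch 4, -0.039, farthest from 0 for that gene.

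**Figure D3:**
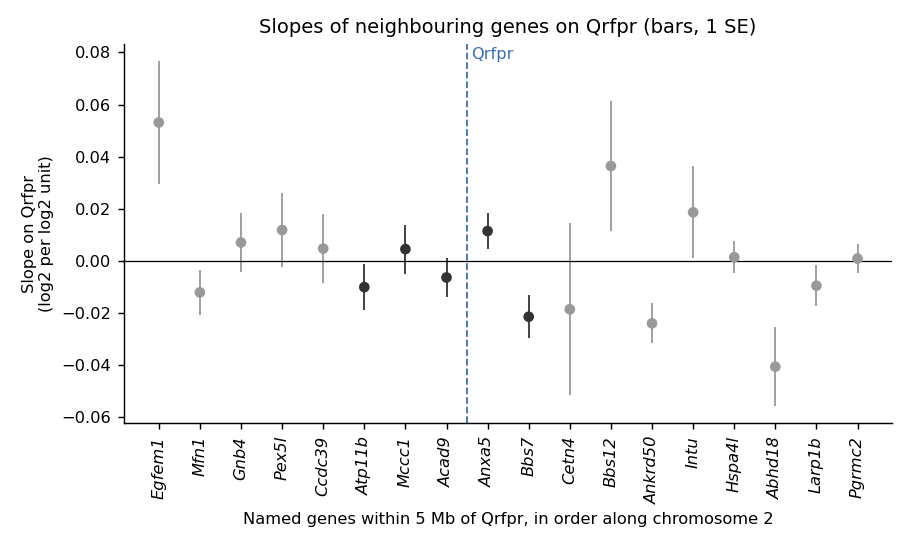
Slope on *Qrfpr* (change in log2 value per log2 unit of *Qrfpr*) of the 18 described genes within 5 Mb, in their order along chromosome 2 in GRCr8, with bars of 1 standard error and the place of *Qrfpr* as a dashed line. Genes within 1 Mb are dark, and slopes on both sides of *Qrfpr* lie above and below 0, from -0.041 to 0.053.

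Within 5 Mb, 4 of the 18 described neighbours (22.2%) had an unadjusted p under 0.05, and the same share over all genes was 2.58%. Genes this close together may share inheritance and are not independent. Besides *Bbs7* they were *Ankrd50*, *Abhd18* and *Egfem1*, which are named after their values were seen. *Ankrd50*, which takes part in the recycling of membrane proteins from endosomes, had a slope of -0.024 (standard error 0.0077, p = 0.00259), and *Abhd18* had -0.041 (0.015, p = 0.00872). *Egfem1*, on the opposite side of *Qrfpr*, had a positive slope of 0.053 (0.024, p = 0.0266). None of the 18 passed after adjustment over all genes (adjusted p = 0.99983 from limma for each). That, too, was settled by leaving out the only gene past the threshold, so it is not a result about the region. Negative slopes were found for 8 of the 18 neighbours and for 52.4% of all genes. *Ankrd50*, at a mean log2 value of 9.85 ± 0.17 (SD, n = 80), had a negative slope in all 4 batches, from -0.036 (0.024) in batch 2 to -0.019 (0.016) in batch 3, with an unadjusted p of 0.0759 or more in each. Its slope was -0.036 (0.012) in males and -0.012 (0.010) in females, and no test of the difference between the sexes is given here.

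Among RFamide receptors, identifiers could be paired for 2 of the 4 listed. *Prlhr*, the receptor of prolactin-releasing peptide, had a mean log2 value of 3.93 ± 0.65 (SD, n = 80, range 2.32 to 5.46) and a slope on *Qrfpr* of 0.0070 (standard error 0.036). *Kiss1r*, the kisspeptin receptor, was at 5.32 ± 0.38 (SD, lowest value 4.39) with a slope of 0.033 (0.020, unadjusted p = 0.102). Both had a smaller SD than *Qrfpr*, as did 99.1% of the genes in the table. *Qrfpr* was chosen for its levels, so this is no trait of these receptors. None of the 5 listed RFamide peptides, *Qrfp* among them, could be paired with an identifier, so the ligand was not analysed here. The same holds for *Qrfprl*, a related receptor gene on chromosome 4, and whether reads were shared between it and *Qrfpr* is not known.

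Over all pathway lists, 32 of the 105 listed genes had an identifier, and 0 of them passed the threshold in either direction, against 0.0058% of all genes. Their names, too, came from the authors' eQTL tables, so they are not a fair sample of the lists. Of the 32, 3 had an unadjusted p under 0.05, against 2.58% of all genes, and 23 had a positive slope, against 8214 of all 17249 genes tested. Their median slope was 0.0059, and that of all genes tested was -0.00059. Receptors of other feeding and arousal peptides gave 14 of 34 genes, 10 of them with a positive slope and a median of 0.012. The 3 genes with a small unadjusted p were *Hcrtr1*, *Avpr1a* and *Agrp*, chosen here for their values. *Hcrtr1*, an orexin receptor, had a slope of 0.066 (standard error 0.023, p = 0.00487). *Avpr1a*, a vasopressin receptor, had 0.096 (0.046, p = 0.0408), and *Agrp*, a feeding peptide, had 0.10 (0.046, p = 0.0273). *Avpr1a* and *Agrp* were low, at mean log2 values of 3.07 ± 0.85 and 2.60 ± 0.89 (SD), and each had a lowest value of 0. The adjusted p of each of the 3 genes was 0.99983 from limma.

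Genes of Gq and Gi signalling, through which the receptor acts, gave 10 of 34. Their median slope was 0.0024 and none had an unadjusted p under 0.05, against 2.58% of all genes. A count of 0 among 10 genes is close to that share. *Plcb1*, a phospholipase C expressed at 11.32 ± 0.19 (SD), had a slope of -0.00090 (standard error 0.0097), *Itpr1*, an inositol trisphosphate receptor at 13.54 ± 0.15, had 0.0028 (0.0072) and *Grk2*, a kinase that desensitizes receptors, had 0.0036 (0.0051). Cortical and feeding neuropeptides gave 5 of 17 genes with a median slope of 0.021, and immediate early genes gave 1 of 11, *Fosb*, with 0.033 (0.036).

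Markers of cell types were examined because a bulk sample cannot tell fewer cells of a type from less RNA per cell. Of 63 listed markers, 12 had an identifier, and 0 of them passed the threshold or had an unadjusted p under 0.05. Over all genes the shares were 0.0058% and 2.58%, so a count of 0 among 12 says little about cell types. The median slope of the 12 on *Qrfpr* was -0.0011. Names were available only for genes in the authors' eQTL tables, so these 12 are not a fair sample of the markers. Excitatory neurons, inhibitory neurons and astrocytes had 1 such marker each. *Neurod6*, a marker of cortical excitatory neurons, was at 11.08 ± 0.16 (SD, n = 80) with a slope of -0.00075 (standard error 0.0090), and *Slc32a1*, the vesicular transporter of inhibitory neurons, was at 10.25 ± 0.28 with 0.018 (0.010). Both were high in every rat, as were the layer markers *Etv1* (lowest value 10.69) and *Foxp2* (7.02) in this cortical tissue. The other measured markers were *Aldh1l1* of astrocytes, *C1qa* and *P2ry12* of microglia, *Rgs5* of vessels, *Dcn* of meninges, *Hbb* of blood, and *Nr4a2* and *Gnb4* of the claustrum. Their slopes lay between -0.028 for *Dcn* and 0.057 for *Hbb*, both within 1.5 standard errors of 0. None of the listed markers of oligodendrocytes, striatum or choroid plexus could be paired with an identifier.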

How the data were processed

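RNA from the PL of HS rats was sequenced by the authors as single-end reads. They trimmed reads with cutadapt, estimated counts per gene with RSEM against one Ensembl rat transcriptome (build Rnor_6.0 per the labels), applied an upper quartile adjustment in DESeq2, filtered samples and genes, and deposited the log2 of each adjusted count plus 1. Tool versions are not given in the sources used here. Undoing the log2 gave whole numbers for 100% of the values, within 0.1%. Adjusted counts summed to between 16957388 and 20613398 per library after the adjustment, so they are not the read depth of the libraries, which was not used here. Values of the lower *Qrfpr* rats rest on few reads, so differences among them are imprecise.

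Each table column matched the title of 1 sample, and sex and rat batch came from the labels. Slopes, sex and batch were tested by moderated linear models (limma 3.58.1 under R 4.3.3, trended prior variance), using the whole log2 table, with Benjamini-Hochberg adjustment. The main fits of slope, sex and batch had first been tested on simulated data with independent normal noise for each gene. Interaction tests and alternative fits were not tested in this way. Permutations and mixtures used Python 3.11.15 with numpy 2.4.6 and scipy 1.17.1. Each rat gave 1 library, and the rat was the replicate.

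The authors' eQTL tables pair 3292 of the identifiers (19.1%) with names; only names were taken from them, and RefSeq (GRCr8) was used only for the order of named genes and the promoter. The genes named are *Qrfpr*, neighbours within 1 Mb, the RFamide receptors and, chosen after their values were seen, those stated as such and the examples from the lists. *Qrfpr* and the lists were chosen with earlier results of these data known. The gene past the threshold is not reported here beyond its count, and counts of neighbours cover the genes described. Genotypes and other brain regions were not analysed here.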

Additional observations from a re-analysis of the deposited data

How the results depend on the processing

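The 30 rats at the lower level of *Qrfpr* were also 30 by the mixture of normal distributions and with a pseudocount of 10. Both reuse the same values in the same order, so this only adds to the description. The sex difference (0.24 to 3.26) and the batch F (0.252 to 1.00) stayed short of the threshold in every alternative run; the highest sex difference came with 20 expression components in place of batch and had a standard error of 2.65. The count of genes following *Qrfpr* was 1 in 10 alternatives, among them the rank-based inverse normal transformation, a pseudocount of 10, no sex or no batch in the model, and 20 expression components with or without batch (computed without *Qrfpr*). It was 0 without batch 3, without batch 4, without batch 6, in only the rats above or only those below the gap, and without the 2 rats farthest from the median of *Qrfpr*. Unadjusted p under 0.05 was reached by 757, 484, 405, 1452, 447 and 448 genes in these settings. Fewer rats entered each of these fits, and within a level *Qrfpr* also varied less, so a count of 0 does not show that slopes changed. Leaving out the 2 rats and adding the components to batch were chosen after seeing the data, as were the permutation tests. *Bbs7* kept its direction in all of these and within each batch and sex. Without batch 4, however, its slope was only -0.011 (standard error 0.0095, unadjusted p = 0.236 from limma). It was -0.023 without batch 2, -0.026 without batch 3 and -0.024 without batch 6. Directions of genes that never passed turned for *Acad9* (0.013 above and 0.041 below the gap), *Anxa5* (-0.0068 below), *Atp11b* (0.00062 with components in place of batch, 0.0070 below), *Mccc1* (-0.0021 without batch 3, -0.12 below) and *Prlhr* (-0.069 with the rank transformation, -0.0063 with no batch, -0.0081 without batch 2, -0.26 above, -0.061 below). Within single batches or sexes they turned for *Acad9* (0.0053 in batch 4, 0.0037 in males), *Atp11b* (0.013 in females), *Mccc1* (-0.0059 in batch 4, -0.0019 in batch 6), *Prlhr* (-0.00050 in batch 3, -0.020 in batch 4, -0.045 in males) and *Kiss1r* (-0.046 in batch 3); the cause was not tested. No paired analysis was possible because each rat gave 1 library and the labels number no replicates. Among groups of 4 to 10 rats of a sex and batch, none of those tested for *Qrfpr* held a rat far from the others. Each group of this size held several rats of both levels, so the test could hardly flag a single rat.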
